A study of Mus musculus with 18 samples.

Results

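Metaphase II oocytes obtained by in vitro maturation (IVM-MII) from mice of 12 months (12m) were compared with IVM-MII oocytes from mice of 6 weeks (6wk). The members were chosen by their labels alone: 3 IVM-MII 12m oocytes and 3 IVM-MII 6wk oocytes, 6 of the 18 oocytes in the series. All came from wild-type C57BL/6 mice and were matured without MSC, which the labels leave as an abbreviation. Each oocyte was lysed alone, the nucleus was pelleted, and the remaining lysate was made into a SMART-seq2 library, a method that copies polyadenylated RNA into full-length cDNA. The other groups hold 3 oocytes each at both ages: germinal vesicle (GV) oocytes without MSC, and IVM-MII oocytes matured beside MSC (MSC-IVM-MII). The series title and design name the effect of that co-culture as the question; the age comparison without MSC gives the state that the co-cultured oocytes are set against.

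The labels name no animal, litter or culture, so the 3 oocytes of a group were taken as 1 sample and the ages were compared without a test. Values after ± are the SD over 3 oocytes. Levels are CPM, counts relative to the scaled total of the library, and an age difference is the mean log2(CPM + 1) at 12m minus that at 6wk, so 1 stands for 2-fold. Per oocyte, fewer copies of a transcript and a larger total of other RNA cannot be told apart on this scale. The titles of the samples begin with prefixes of unstated meaning. The 12m oocytes carry O04 (oocytes 1 and 2) and O05 (oocyte 3), the 6wk oocytes Y01 (oocyte 1) and Y03 (oocytes 2 and 3). None of these is shared between the ages, so age and prefix cannot be told apart.

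A metaphase II oocyte is arrested on its second meiotic spindle and does not transcribe. It lives on mRNA stored during growth, some of which is translated at maturation when its poly(A) tail is lengthened, and much of which is deadenylated and degraded. Stored mRNA, mitochondria and the proteins that hold chromosomes together have been studied widely in ageing oocytes. Because the libraries were primed on poly(A), a level here can reflect tail length as well as copy number.

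Libraries held 4583562 to 8948887 counts at 12m and 3080516 to 4271400 at 6wk, and 9823 to 11098 and 8979 to 11553 genes had a count after all were thinned to 3080516 counts. The 33 measured oocyte identity and maternal effect genes summed to 44046 to 63530 CPM at 12m and 43444 to 74756 CPM at 6wk, so the label of oocyte held in all 6. The cumulus and granulosa markers summed to 176 to 259 CPM at 12m and 148 to 1371 CPM at 6wk. Of these 29 markers 17 were at 0 in all 6 oocytes, Foxl2, Fshr and Amhr2 among them, and most of the highest sum was Serpine2 (1291 CPM in 6wk oocyte 1). Cyp19a1, next after Serpine2 by mean level, was at 23.2, 15.8 and 31.1 CPM at 12m and at 62.0, 0 and 29.6 CPM at 6wk. Mesenchymal markers summed to 8.26 to 20.6 CPM at 12m and 1.71 to 35.0 CPM at 6wk, with 15 of 23 at 0, including Col1a1, Pdgfra and Thy1. Fn1, the highest of them by mean level, was higher at 12m without overlap (difference 3.52). Blood and immune markers stayed at or below 20.8 CPM, with 14 of 18 at 0, including Ptprc.

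One library stood apart. 6wk oocyte 1 correlated with the other 5 at 0.705 to 0.789 (Pearson r of log2(CPM + 1) across 12037 genes), while all pairs without it lay between 0.788 and 0.842. Its mitochondrially encoded share was 3.22% of counts, against 6.04 to 14.9% in the other 5. It also held Mos, the kinase that maintains metaphase II arrest, at 1258 CPM against 4.96 and 6.26 CPM in the other 6wk oocytes and 1.33, 0 and 5.08 CPM at 12m. A library of the co-cultured group looked alike: MSC-IVM-MII 6wk oocyte 1, which also carries the prefix Y01, correlated with it at 0.914 and with the other 6wk IVM-MII oocytes at 0.736 and 0.785. Its mitochondrial share was 3.03%, against 8.65 and 7.66% in the other 6wk oocytes of its group, and its Mos level 641 CPM against 1.0 and 8.61 CPM. The 3 GV oocytes of 6wk held Mos at 798 to 952 CPM, but over all genes 6wk oocyte 1 correlated with them at 0.448 to 0.668, against 0.657 to 0.72 for the other IVM-MII 6wk oocytes. The part of the prefix in these values was not tested. Without 6wk oocyte 1, 25.3% of all genes were 2-fold higher at 12m and 11.1% lower, with a median of 0.27. Counts of list members without it are read against these shares, and a gene whose 2-fold difference is lost without it is given with that value.

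Of the 12037 genes kept, 2167 (18%) were at least 2-fold higher at 12m and 1093 (9.08%) at least 2-fold lower. In 611 (5.08%) of the former and 210 (1.74%) of the latter the oocytes of the ages did not overlap, that is, every oocyte of one age lay above every oocyte of the other. These are shares of all genes kept. The median difference over all genes was 0.16. The median within-age SD of a gene was 0.83 at 12m and 1.00 at 6wk on the same log2 scale, while the median size of the age difference was 0.58. In 9594 genes (79.7%) the age difference was smaller than the larger of the gene's own within-age SDs. Higher genes made up 66.5% of the 2-fold differences and 74.4% of those without overlap. With 4 other scalings of the counts these shares ran from 59.2 to 66.3% and from 65.4 to 74.4%. With the deposited TPM, which also divides by transcript length, they were 52.5% and 55.8%, and the median over all genes was 0.00.

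**Figure D1:**
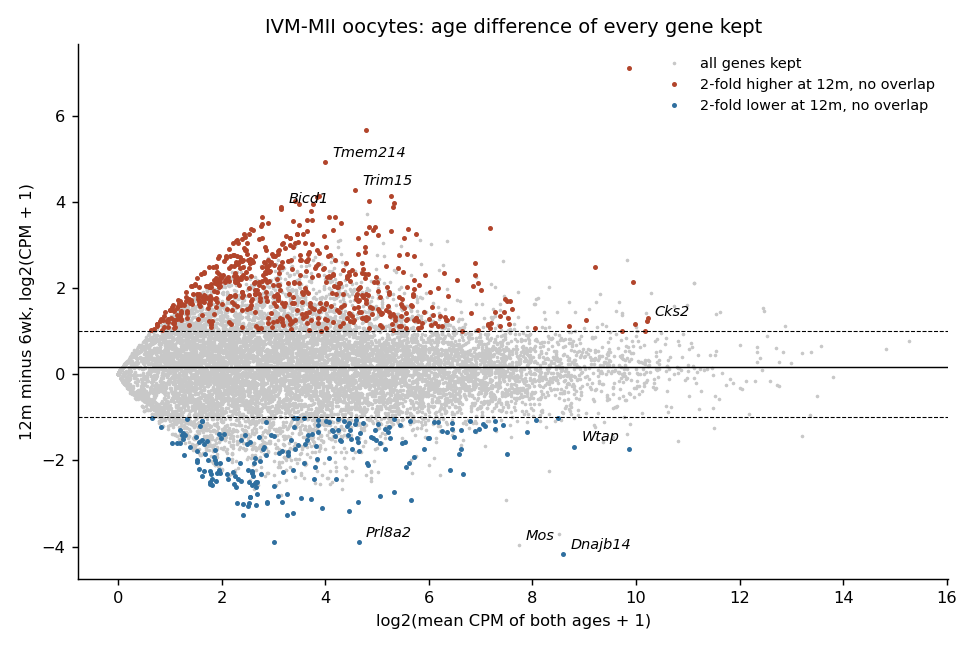
Each point is 1 of 12037 genes: the x axis is log2 of the mean CPM of both ages plus 1, the y axis the difference 12m minus 6wk in mean log2(CPM + 1). Coloured points are the 611 higher and 210 lower genes past 2-fold (dashed lines) without overlap; the solid line is the median of 0.16, and the spread is widest among weakly expressed genes.

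Genes without overlap differed in kind between the directions. Of the 611 higher ones 484 (79.2%) were protein coding and 77 (12.6%) were long noncoding or antisense, against 199 (94.8%) and 7 (3.33%) of the 210 lower ones. Over all genes kept, 90.1% were protein coding and 6.28% long noncoding or antisense. A count was present in all 3 12m oocytes and in no 6wk oocyte for 89 of the 12037 genes, and the reverse held for 26. These were taken before thinning. The 12m libraries were deeper (4583562 to 8948887 against 3080516 to 4271400 counts), and the part of depth in these numbers was not tested.

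The largest differences upward, among protein-coding or otherwise named genes at 20 CPM or more, belonged to genes nearly without counts at 6wk. Tmem214 (chr5:30868012-30879180, GRCm38), which encodes a protein of the endoplasmic reticulum membrane, was at 32.3, 36.6 and 21.2 CPM at 12m and at 0 in each 6wk oocyte. This made it at least 36.7-fold higher against a floor of 3 counts per library. Trim15, a ubiquitin ligase of the tripartite motif family, was at 40.2, 13.0 and 79.4 CPM against 5.39, 0 and 0 CPM (difference 4.27). Haus7, a subunit of the augmin complex that branches spindle microtubules, was at 20.9, 21.2 and 30.9 CPM against 3.15, 0 and 0 CPM (difference 3.96). Sgf29, which reads methylated histone H3 within the SAGA complex, was at 134, 37.2 and 48.5 CPM against 10.6, 0.310 and 3.42 CPM (difference 3.96). In Trim15 and Haus7 the counts at 6wk came from oocyte 1 alone, and without it their differences were 5.17 and 4.64.

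Rubcnl, which acts in autophagosome maturation, stood at 26.6, 18.6 and 32.6 CPM against 2.47, 0 and 0 CPM. Errfi1, a feedback inhibitor of the EGF receptor, stood at 73.4, 61.4 and 52.3 CPM, but its 6wk oocytes were split: 44.0 CPM in oocyte 1 and 0.310 and 0.285 CPM in the others. Its groups were apart by only 0.24 log2 units between the nearest oocytes, and its difference went from 3.89 to 5.60 without 6wk oocyte 1. The nearest oocytes of the ages were 2.50 log2 units apart for Rubcnl and 4.47 for Tmem214. Elp2, a subunit of the Elongator complex that modifies tRNA, differed by 3.58, Aamdc by 3.95, the WD-repeat gene Wdr73 by 3.65 and the zinc finger gene Zfp940 by 3.51. In 8 of the 15 genes of this set the 6wk counts came from oocyte 1 alone. All 15 stayed more than 2-fold higher at 12m without it. In those 8 this was fixed in advance, since the 6wk oocytes left held no count of them. A larger difference, 7.10, belonged to Gm28661, an unprocessed pseudogene outside the rule for named genes and singled out after its value was seen. It was at 1109, 2293 and 1210 CPM at 12m and at 0.225, 0 and 969 CPM at 6wk, so its 6wk oocytes disagreed among themselves; counts of a pseudogene depend on how reads shared with its parent were split.

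**Figure D2:**
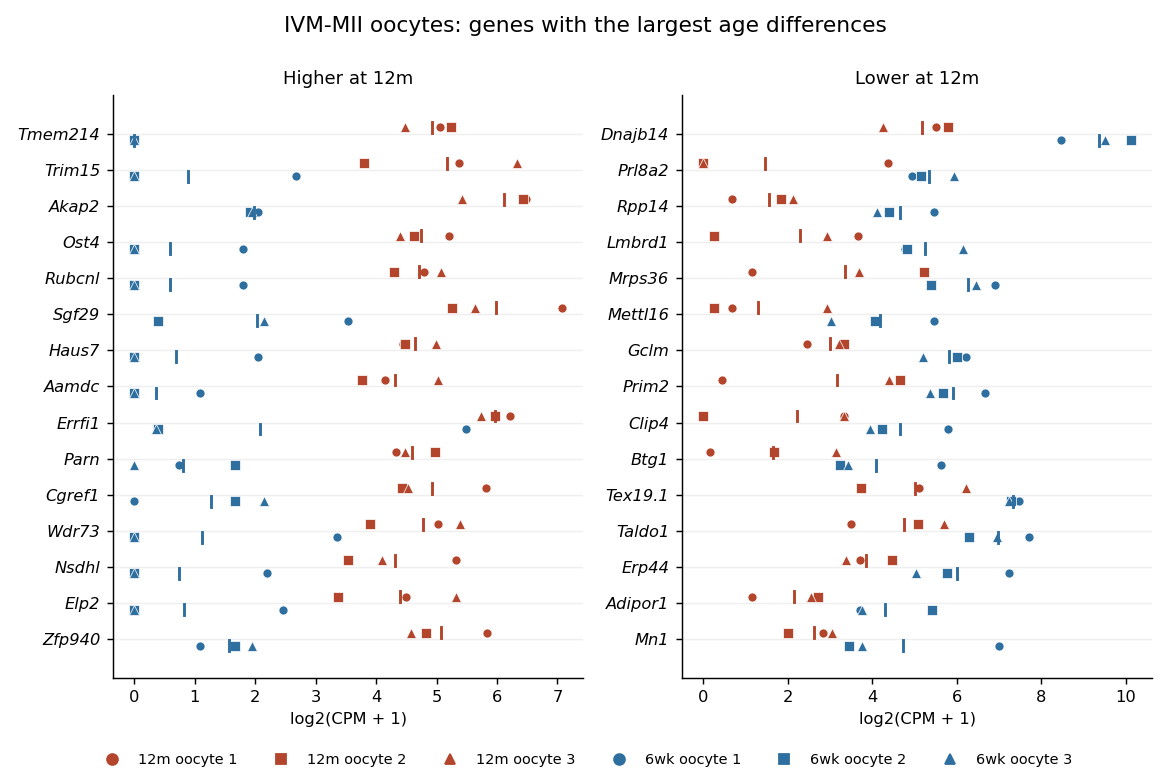
Levels of the 15 genes with the largest differences in each direction, as log2(CPM + 1) on the x axis, 1 marker per oocyte (shape gives the oocyte, red 12m, blue 6wk) and a bar for the mean of each age. 6wk oocyte 1 (blue circle) lies nearest to the 12m oocytes for Trim15, Errfi1 and Wdr73, and 12m and 6wk markers nearly meet for Btg1, Mettl16 and Mrps36.

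Akap2 was at 88.3, 85.7 and 42.1 CPM at 12m and at 3.15, 2.79 and 2.85 CPM at 6wk, a difference of 4.14 with little spread within 6wk. The gene encodes an anchor of protein kinase A, the kinase through which cAMP holds prophase arrest. Its exons overlap on the same strand with those of Pakap, a readthrough gene, so a read from the shared exons can be given to either. Pakap was at 941, 565 and 369 CPM at 12m and at 566, 509 and 405 CPM at 6wk. Summed, both came to 697 ± 312 CPM at 12m and 496 ± 81.9 CPM at 6wk, a difference of 0.40 with overlap between the ages. The difference of Akap2 therefore holds for the counts given to it, not for the locus.

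Among the genes nearest to Tmem214 on chromosome 5, another 3 were higher at 12m without overlap. They lie close together (chr5:30868012-30960361, GRCm38) and on both strands. Ost4, the small subunit of the oligosaccharyltransferase that attaches N-glycans, was at 35.8, 23.6 and 20.1 CPM against 2.47, 0 and 0 CPM. Cgref1, a secreted EF-hand protein, was at 55.6, 20.6 and 22.0 CPM against 0, 2.17 and 3.42 CPM. Preb, the exchange factor that starts COPII coat assembly at the endoplasmic reticulum, was at 15.2, 29.2 and 11.01 CPM against 2.25, 0.310 and 4.56 CPM. Agbl5 (difference -0.15) and Gm43808 (-0.44), which lie among them and were kept, did not follow, nor did Mapre3 (-0.31) on one side. On the other side Atraid differed by 0.47, and Slc5a6 and Cad had no count in any of the 6. This stretch was singled out after the values were seen. Ost4 overlaps an exon of Agbl5, Tmem214 one of Gm43808 and Preb one of Abhd1, each on the opposite strand, and whether reads were counted by strand is not stated.

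Lower at 12m, Dnajb14 stood first. It encodes an Hsp70 co-chaperone anchored in the endoplasmic reticulum. Its level was 44.4, 54.6 and 18.2 CPM at 12m and 354, 1117 and 732 CPM at 6wk, 18.8-fold lower by the means (39.1 ± 18.8 against 734 ± 382 CPM). No 12m oocyte came within 2.67 log2 units of a 6wk oocyte. Erp44, which retains thiol-linked cargo in the endoplasmic reticulum, was at 12.1, 21.2 and 9.32 CPM against 149, 53.6 and 31.9 CPM. The lysosomal cobalamin exporter Lmbrd1 was at 11.6, 0.200 and 6.56 CPM against 26.5, 27.3 and 70.3 CPM.

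Tex19.1, which restrains retrotransposons in the germline, was at 33.3, 12.2 and 73.9 CPM at 12m and at 177, 155 and 150 CPM at 6wk, 4.04-fold lower by the means. Prl8a2, a prolactin family hormone known from the decidua, was at 19.6, 0 and 0 CPM against 29.7, 34.7 and 60.6 CPM. H1foo, the oocyte linker histone, was 2.21-fold lower by the means, at 1364, 5161 and 11002 CPM against 20874, 6494 and 11437 CPM, but its ages overlapped. Oog3 (364 ± 71.1 against 1145 ± 643 CPM) overlapped as well. Over the 33 measured members of the oocyte identity and maternal effect list the median difference was 0.20, near that of all genes (0.16). Of these members 3 were higher and 3 lower (9.09% each), against 18% and 9.08% of all genes. None of these 6 was without overlap, while 5.08% and 1.74% of all genes were past 2-fold higher and lower without overlap. Without 6wk oocyte 1 there were 9 higher (27.3%) and 3 lower (9.09%) with a median of 0.25, against 25.3% and 11.1% of all genes.

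Among the remaining genes of the lower set, Rpp14, a subunit of ribonuclease P, was at 0.603, 2.60 and 3.39 CPM against 43.2, 20.1 and 16.2 CPM (difference -3.10). Prim2, the large subunit of DNA primase, was at 0.362, 24.4 and 19.9 CPM against 101.1, 49.9 and 40.4 CPM. Mettl16, an RNA methyltransferase, and Mrps36 differed by -2.90 and -2.91, but their nearest oocytes were only 0.10 and 0.18 log2 units apart. Clip4, Adipor1 and Mn1 differed by -2.44, -2.16 and -2.11. Of this lower set Mn1 changed most when 6wk oocyte 1 was left out. It was at 127 CPM in 6wk oocyte 1 and at 9.92 and 12.5 CPM in the others, and its difference was -0.98 without that oocyte. The other 14 genes of this set stayed more than 2-fold lower without it.

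Glutathione and the pentose phosphate pathway supply reducing power to the oocyte, and single enzymes of both stood apart by age in different directions. Gclm, the modifier subunit of the enzyme that limits glutathione synthesis, was at 4.47, 8.99 and 8.26 CPM at 12m against 73.7, 63.5 and 35.6 CPM at 6wk. It was 7.96-fold lower by the means. Gclc, the catalytic subunit, had no count at 12m and was at 7.42, 8.68 and 0 CPM at 6wk. G6pdx, which opens the pentose phosphate pathway, was higher at 12m, at 182, 352 and 308 CPM against 43.4, 153 and 121 CPM, a difference of 1.53 that was 0.98 without 6wk oocyte 1. Taldo1, transaldolase of the same pathway, was lower, at 10.3, 33.0 and 51.0 CPM against 207, 77.5 and 123 CPM. The list of 44 measured glutathione, thioredoxin and antioxidant genes had a median of 0.11, with 6 higher (13.6%) and 9 lower (20.5%), against 18% and 9.08% of all genes. Of these 15, Gclm and Glrx2 (lower) and G6pdx (higher) were without overlap. Gstp1 (0.90) and Mgst3 (0.82) were higher without overlap but within 2-fold. The list without 6wk oocyte 1 had 2 higher (4.55%) and 9 lower (20.5%), with 1 and 5 of these without overlap. Of all 12037 genes 1407 and 565 were past 2-fold without overlap when that oocyte was left out, against 611 and 210 with all 6.

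Factors that shorten poly(A) tails and degrade mRNA stood apart in both directions. Parn, a poly(A)-specific exonuclease, was at 19.1, 30.6 and 21.4 CPM at 12m and at 0.674, 2.17 and 0 CPM at 6wk. Cnot1, the scaffold of the CCR4-NOT deadenylase, was at 32.7, 8.99 and 47.9 CPM against 6.74, 6.51 and 3.13 CPM. Dcp2, the decapping enzyme, was at 56.9, 66.2 and 63.1 CPM against 22.3, 43.4 and 24.5 CPM (difference 1.08, and 0.90 without 6wk oocyte 1). The exosome subunit Exosc4 (difference 1.61) and the nonsense-mediated decay factor Upf2 (1.46) were also higher without overlap. On the lower side without overlap stood Tut7, which adds uridines to short tails before decay, at 25.7, 33.0 and 12.1 CPM against 67.9, 73.1 and 60.4 CPM, and Btg1 and Btg2, which recruit deadenylases. Btg1 differed by -2.43 with its nearest oocytes 0.08 log2 units apart, and Btg2 by -1.52. The poly(A) polymerase Papola differed by -0.36 with overlap.

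Of the 51 measured genes for deadenylation and mRNA decay, 9 were 2-fold higher and 5 lower, with 5 and 3 without overlap, and their median was 0.12. The shares without overlap, 9.80% and 5.88%, lie above those of all genes (5.08% and 1.74%), and the 2-fold shares of 17.6% and 9.80% lie near theirs. Leaving out 6wk oocyte 1, the counts past 2-fold were 18 (35.3%) and 4 (7.84%), and the median was 0.27, that of all genes without it. Among 57 genes for mRNA storage and translational control 11 were higher (19.3%) and 5 lower (8.77%; median 0.13). With 6wk oocyte 1 left out these were 20 (35.1%) and 7 (12.3%), with a median of 0.54. Eif3e, a subunit of the initiation factor that recruits the small ribosomal subunit, was at 116, 258 and 70.3 CPM against 320, 353 and 307 CPM. Eef1a1, the elongation factor that delivers aminoacyl-tRNA, was at 36.6, 78.1 and 57.6 CPM against 16.4, 25.7 and 22.5 CPM. Neither had overlap between the ages.

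Nuclear genes of oxidative phosphorylation had the highest median of the 26 lists, 0.79, with 33 of 77 members (42.9%) 2-fold higher and 3 (3.90%) lower. All genes gave 18% and 9.08%. Succinate dehydrogenase subunit Sdhb was at 80.9, 12.8 and 86.4 CPM against 0.225, 15.5 and 7.69 CPM. Uqcr11 of complex III was at 281, 0.999 and 96.8 CPM against 1.35, 4.65 and 6.83 CPM. Cox6a1 of complex IV was at 291, 14.99 and 88.1 CPM against 8.99, 16.7 and 14.5 CPM. In each, 12m oocytes 1 and 3 lay above all 6wk oocytes and 12m oocyte 2 did not.

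That pattern ran through the list. Of the 33 higher members 12m oocyte 2 was within or below the 6wk range in 26, 12m oocytes 1 and 3 were above every 6wk oocyte in 25, and 6wk oocyte 1 was the lowest of its age in 24. Past 2-fold without overlap, 5 members (6.49%) were higher, against 5.08% of all genes: Ndufb6, Ndufv3, Cox8a, Atp5g1 and Atp5l. Ndufs1 and Sdha (2.60% of the list, against 1.74% of all genes) were lower without overlap. Sdha was at 42.9, 41.6 and 41.1 CPM against 167, 58.6 and 77.4 CPM. Without 6wk oocyte 1 the median was 0.42, with 21 higher (27.3%) and 7 lower (9.09%), shares close to those of all genes without it (25.3% and 11.1%, median 0.27). Past 2-fold without overlap were then 1 higher and 6 lower members, against 1407 and 565 of all 12037 genes. The differences of Ndufb6, Cox8a, Atp5g1 and Atp5l were then 0.62, 0.87, 0.92 and 0.83, and that of Sdha was -0.67. Without 12m oocyte 1 the median of the list was 0.51.

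Cytosolic ribosomal protein genes followed with a median of 0.66. Of 81 members 22 were higher (27.2%) and 5 lower (6.17%), against 18% and 9.08% of all genes. Past 2-fold without overlap, 13 (16.0%) were higher and 1 (1.23%) lower, against 5.08% and 1.74% of all genes. Rpl11 was at 91.7, 24.0 and 40.2 CPM against 15.1, 8.99 and 4.56 CPM and Rps10 at 49.9, 18.4 and 59.7 CPM against 5.84, 13.3 and 12.0 CPM. Here too 12m oocyte 2 was the lowest of its age in 15 of the 22. Without 6wk oocyte 1 the median was 0.30, with 21 higher (25.9%) and 11 lower (13.6%). All genes without it gave 25.3% and 11.1%, with a median of 0.27. Past 2-fold without overlap were then 15 higher and 6 lower members, against 1407 and 565 of all 12037 genes. Ribosomal protein genes have many processed pseudogenes, so how the counts were split between copies adds to their error. The medians of both lists were above 0 with each scaling tried (0.56 to 0.80 and 0.39 to 0.67).

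**Figure D3:**
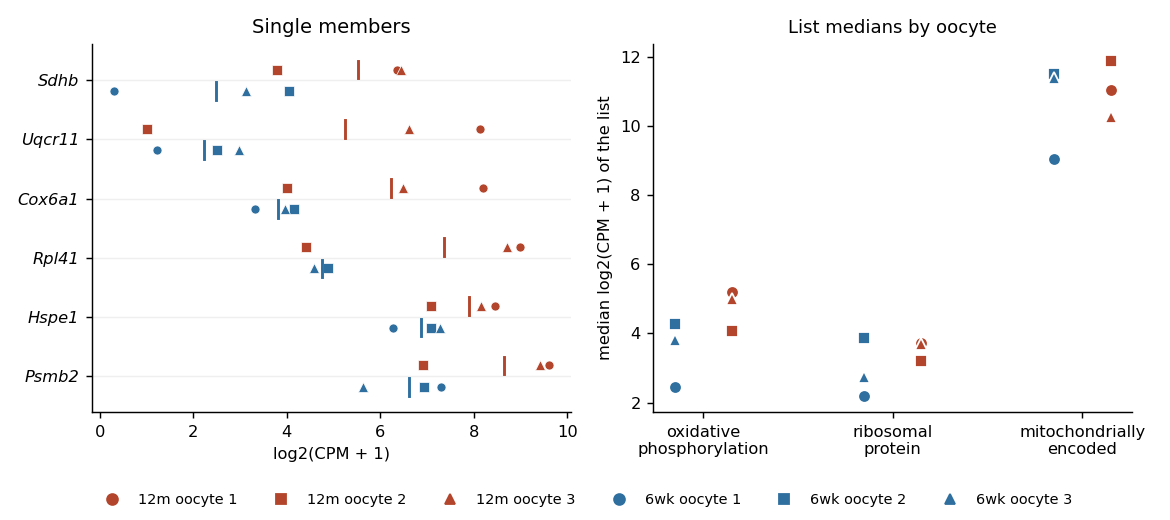
Left, log2(CPM + 1) of 6 genes by oocyte with a bar for the mean of each age; right, the median log2(CPM + 1) of the members of 3 lists in each oocyte. 12m oocytes 1 and 3 (red circle and triangle) lie above the 6wk oocytes for Uqcr11, Cox6a1 and Rpl41 while 12m oocyte 2 (red square) does not, and 6wk oocyte 1 (blue circle) has the lowest list median in all 3 lists.

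The 13 mRNAs encoded by the mitochondrial genome had a median of 0.59 and much spread. Of them 2 were higher (15.4%) and 1 lower (7.69%), against 18% and 9.08% of all genes. The summed level of the 13 was 129001, 151486 and 51393 CPM at 12m and 28796, 107110 and 96340 CPM at 6wk, so the ages overlapped. The lowest sum was that of 6wk oocyte 1, and without it the median was -0.11, with 0 higher and 1 lower. Both mt-Co1 and mt-Nd4l were without overlap. mt-Co1 was higher by 0.60, within 2-fold. mt-Nd4l had no count at 12m and was at 3.82, 6.20 and 5.13 CPM at 6wk. That is a few CPM in a list that summed to 28796 CPM or more in every oocyte.

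Meiotic regulators and the spindle checkpoint showed single genes apart rather than a common direction. Cks2, the cyclin-dependent kinase subunit that oocytes need to leave metaphase I, was at 1658, 1344 and 1951 CPM at 12m and at 709, 509 and 924 CPM at 6wk, 2.31-fold higher by the means. Fzr1, the activator of the anaphase-promoting complex that keeps prophase arrest, was at 3.02, 14.2 and 7.41 CPM against 1.12, 0 and 0 CPM. Spc24, of the kinetochore complex that binds microtubules, was at 39.1, 13.2 and 79.6 CPM against 4.72, 5.89 and 7.69 CPM. Bub3, of the spindle checkpoint, was at 111, 91.9 and 93.6 CPM against 209, 217 and 209 CPM, 2.14-fold lower with little spread within either age. Mad2l1bp, which silences that checkpoint, was at 74.9, 9.99 and 66.7 CPM against 151, 111 and 157 CPM.

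The checkpoint and kinetochore list had 4 of 36 members higher (11.1%) and 3 lower (8.33%; median 0.21), and the meiotic cell cycle list 6 of 43 higher (14.0%) and 7 lower (16.3%; median 0.17). All genes gave 18% and 9.08%. The counts without 6wk oocyte 1 were 8 (22.2%) and 3 (8.33%) in the former and 9 (20.9%) and 5 (11.6%) in the latter. Mos, Cdc26 and Cdc20 lay on the lower side with overlap. The difference of Mos was -3.97, and -1.44 without 6wk oocyte 1. Among the 36 measured cohesin and cohesion genes 4 were higher (11.1%) and 2 lower (5.56%). Smc3, a core subunit of the ring, was at 0.241, 35.2 and 32.0 CPM against 944, 12.1 and 50.7 CPM, and its difference of -2.92 was -1.19 without 6wk oocyte 1. Without that oocyte the cohesin list had 14 higher (38.9%) and 3 lower (8.33%) members with a median of 0.63. The 50 genes of spindle assembly and motors then had 25 higher (50%) and 1 lower (2.0%) with a median of 1.00, against 11 (22.0%) and 4 (8.0%) and a median of 0.42 with all 6 oocytes. All genes without that oocyte gave 25.3% and 11.1% with a median of 0.27.

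Chaperones, the proteasome and chromatin factors varied gene by gene. Cct6a and Tcp1, subunits of the ring that folds actin and tubulin, were higher without overlap, Cct6a at 208, 164 and 83.0 CPM against 21.6, 51.1 and 25.6 CPM. Subunit Cct3 of the same ring differed by -1.20 with overlap. The annotation types Cct6a as a processed transcript, not as protein coding, and Snora15 overlaps it on the same strand. The deposited length of Cct6a was 460 to 490 bases, so its counts may not be those of the coding mRNA. The chaperone list had 9 of 50 higher (18%) and 6 lower (12.0%, median 0.20), near the shares of all genes (18% and 9.08%). Without 6wk oocyte 1 it had 13 (26.0%) and 6 (12.0%), against 25.3% and 11.1% of all genes. The proteasome list lay close to 0 (median -0.04), with 1 higher (2.63%) and 2 lower (5.26%) of 38. Without 6wk oocyte 1 it had 2 (5.26%) and 4 (10.5%). The lid subunit Psmd7 was at 41.8, 38.2 and 52.1 CPM against 172, 90.2 and 91.7 CPM. Dnmt3l, the cofactor of maternal DNA methylation, was at 125, 70.5 and 53.8 CPM against 14.2, 17.0 and 27.9 CPM. Suv39h2, which methylates histone H3 at heterochromatin, was at 96.6, 111 and 95.7 CPM against 348, 174 and 202 CPM (difference -1.18, and -0.89 without 6wk oocyte 1). The list of 54 DNA methylation and histone modifiers had 7 higher (13.0%) and 5 lower (9.26%; median 0.04), and without that oocyte 17 higher (31.5%) and 3 lower (5.56%; median 0.33).

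Autophagy and lysosome genes had 2 of 43 higher (4.65%) and 7 lower (16.3%, median -0.05), with the autophagy receptor Optn higher without overlap (difference 1.48). Without 6wk oocyte 1 the list had 7 (16.3%) and 7 (16.3%), against 25.3% and 11.1% of all genes. Apoptosis genes had 1 of 25 higher (4.0%) and 5 lower (20%, median 0.00), against 18% and 9.08% of all genes. Without that oocyte the list had 4 (16.0%) and 4 (16.0%). Aifm1, the mitochondrial flavoprotein, was lower without overlap (-1.20). DNA repair had 11 of 63 higher (17.5%) and 8 lower (12.7%, median 0.01), and 13 (20.6%) and 4 (6.35%) without 6wk oocyte 1. The end-joining factor Xrcc5 was at 12.8, 15.6 and 3.39 CPM against 21.1, 42.8 and 36.4 CPM. Sterol synthesis had 2 of 22 higher (9.09%), Nsdhl first (39.2, 10.6 and 16.1 against 3.60, 0 and 0 CPM), and 1 lower (4.55%). Leaving out 6wk oocyte 1 gave 4 (18.2%) and 1 (4.55%). Medians were 0.43 for mitochondrial dynamics and biogenesis, 0.21 for glycolysis, 0.20 for TGF-beta and BMP signalling, 0.02 for PI3K-AKT-FOXO-mTOR and -0.08 for cAMP and calcium signalling. Without 6wk oocyte 1 these were 0.54, -0.04, 0.66, 0.64 and 0.52. Higher members then went from 6 to 8 of 38 (21.1%), stayed at 3 of 26 (11.5%), and went from 4 to 10 of 23 (43.5%) in the same order. The PI3K-AKT-FOXO-mTOR list went from 4 to 12 of 31 (38.7%) and the cAMP and calcium list from 6 to 10 of 39 (25.6%). Lower members went from 2 to 4 (10.5%), stayed at 3 (11.5%) and went from 2 to 1 (4.35%). In the last named lists they stayed at 4 (12.9%) and 4 (10.3%). All genes without that oocyte gave 25.3% higher and 11.1% lower. Among cAMP and calcium genes Gpr3, the receptor that keeps cAMP high in prophase oocytes, was at 9.29, 25.98 and 13.6 CPM against 4.50, 4.96 and 5.69 CPM, and the sperm fusion factor Cd9 at 68.2, 50.6 and 105.2 CPM against 14.6, 37.8 and 41.0 CPM (difference 1.30, and 0.84 without 6wk oocyte 1). Gdf9, an oocyte growth factor, differed by -0.16 in log2 but was at 17328 CPM in 6wk oocyte 1 and at 571 to 3388 CPM in the other 5, and differed by 1.24 without that oocyte.

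**Figure D4:**
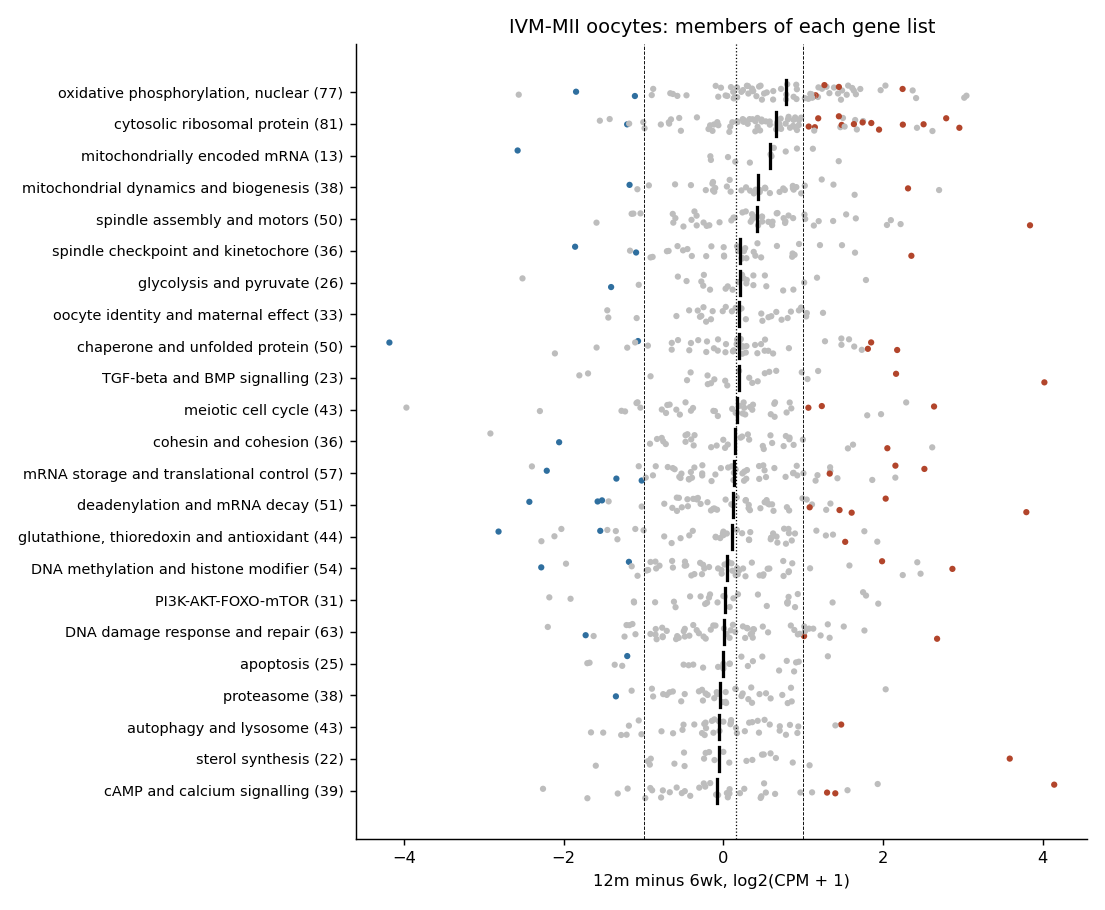
Each point is a measured member of a list (number in brackets), placed by its difference 12m minus 6wk in mean log2(CPM + 1) on the x axis; black bars are list medians and the dotted line is the median of all genes (0.16). Red and blue points are past 2-fold without overlap; oxidative phosphorylation (0.79) and ribosomal proteins (0.66) have the highest medians.

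The same age difference can be read in GV and in MSC-IVM-MII oocytes, which share no library with the IVM-MII comparison but do share the title prefixes O04, O05, Y01 and Y03. The Y01 oocytes of the IVM-MII and MSC-IVM-MII groups, alike as given above, enter 1 comparison each. By the same rule 297 genes (2.47%) were higher and 221 (1.84%) lower at 12m in GV oocytes, and 228 (1.89%) higher and 459 (3.81%) lower in MSC-IVM-MII oocytes. Of the 611 genes higher in IVM-MII oocytes, 49 were also higher in GV oocytes (8.02% of the 611 and 16.5% of the 297) and 63 in MSC-IVM-MII oocytes (10.3% of the 611 and 27.6% of the 228). Of the 210 lower genes, 9 were also lower in GV oocytes (4.29% and 4.07%) and 20 in MSC-IVM-MII oocytes (9.52% and 4.36%). Across all 12037 genes the IVM-MII difference correlated with the GV difference at Pearson r 0.083 and with the MSC-IVM-MII difference at 0.144, and at 0.169 and 0.252 over the 4528 genes at 20 CPM or more. These correlations run across genes, which are not replicates. Most of the 611 and 210 genes did not meet the rule at the other stages.

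There were 19 genes higher and 4 lower past 2-fold without overlap in all 3 kinds of oocyte, of which 7 and 4 are protein coding. Bicd1, a dynein adaptor, was at 25.2, 10.99 and 11.01 CPM at 12m and at 0, 0 and 0.285 CPM at 6wk in IVM-MII oocytes, and over all stages the 9 12m oocytes held 3.32 to 40.9 CPM and the 9 6wk oocytes 0 to 0.843 CPM. Cgref1 (8.76 to 55.6 against 0 to 4.29 CPM) and Synb, an envelope gene of retroviral origin (3.19 to 12.0 against 0 to 1.55 CPM), were likewise apart in all 9 against 9. Dnajb14 was the 1 lower gene to be so, at 18.2 to 54.6 CPM in the 12m oocytes and 100 to 1117 CPM in the 6wk oocytes. The predicted gene Gm37750 held 11.3 to 67.2 CPM at 12m and no count in any 6wk oocyte.

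Wtap, a subunit of the complex that methylates adenosine in mRNA, was lower at every stage: at 204, 192 and 224 CPM against 957, 489 and 624 CPM in IVM-MII oocytes, with differences of -1.68, -1.92 in GV and -1.52 in MSC-IVM-MII oocytes. In the same order of stages Tex19.1 differed by -2.32, -1.41 and -2.73 and Prl8a2 by -3.89, -2.50 and -3.19. Ing4, a histone H3 reader, Noa1, a mitochondrial GTPase, Washc1, of the complex that builds actin on endosomes, and Tmem214 were higher at every stage. The noncoding RNA Zfas1 was higher at each as well (2.55, 1.36 and 2.42). Other leading genes stood apart in IVM-MII oocytes and had small differences elsewhere: Rubcnl (-0.10 in GV and -0.15 in MSC-IVM-MII), Haus7 (0.18 and -0.05), Gclm (0.58 and -0.01), Cks2 (-0.18 and -0.11) and Spc24 (0.13 and 0.18). The difference between stages was not tested.

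**Figure D5:**
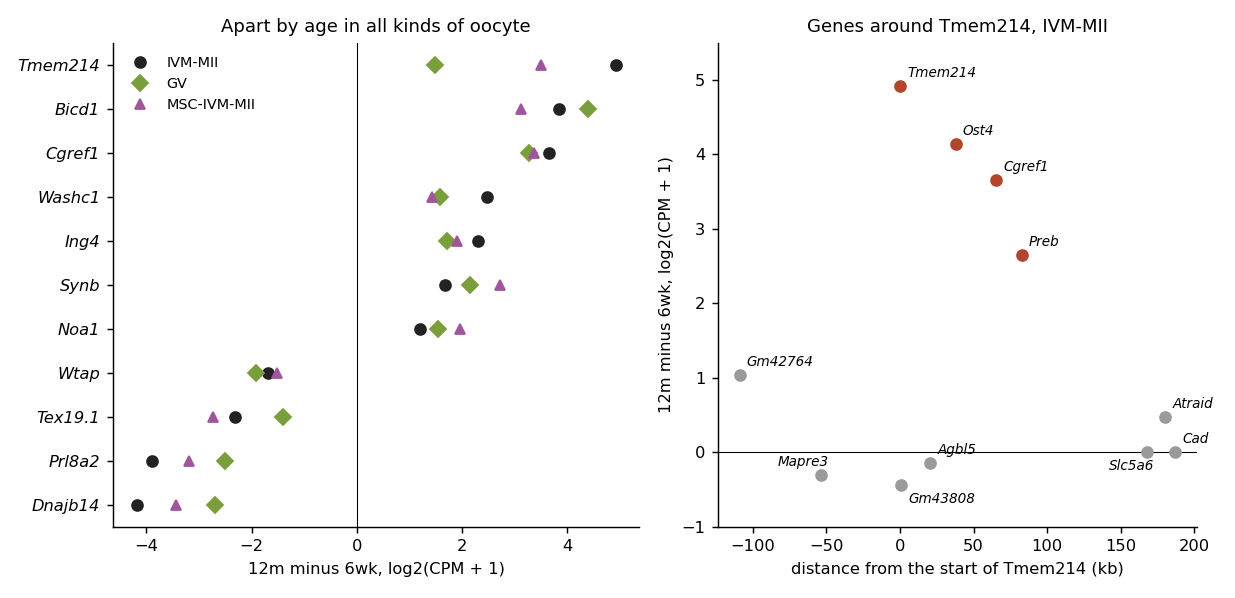
Left, differences 12m minus 6wk in mean log2(CPM + 1) for the 11 protein-coding genes past 2-fold without overlap in IVM-MII, GV and MSC-IVM-MII oocytes alike. Right, the difference in IVM-MII oocytes of kept genes around Tmem214 against the distance of their lower coordinate from that of Tmem214 in kb; red marks the 4 genes higher without overlap.

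Maturation lengthens the tails of mRNAs that carry a cytoplasmic polyadenylation element, a U-rich motif in the 3′ untranslated region close to the transcript end. The motifs TTTTAT and TTTTAAT were searched on the transcript strand of the longest coding transcript of each gene (GENCODE M21, GRCm38). Of the 12037 genes 10819 had a coding transcript to search. A motif lay within the last 100 bases in 19.3% of these, in 16.0% of genes 2-fold higher at 12m and in 22.8% of genes 2-fold lower. Without overlap the shares were 14.9% (72 of 484) and 22.1% (44 of 199). The 3′ untranslated regions of higher genes were shorter, with a median of 983 bases against 1105 in lower genes and 1060 in all, and their transcripts richer in G and C (50.9, 48.2 and 49.2%). These shares are descriptions: a motif is not a site in use. They and the medians were taken with all 6 oocytes only. Among genes at 20 CPM or more, the median deposited length was 2073 bases in 6wk oocyte 1 and 1583 to 1770 bases in the other oocytes. The part of that library in these values was not tested.

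Among the 15 genes of each direction 4 higher and 2 lower ones carried a motif there, and the 30 bases around it are shown so that the motif and its distance from the end can be set beside the levels above. Capitals mark the motif, and sequences run 5′ to 3′ on the transcript strand with T for U.
Trim15 (higher, chr17:36860695-36860724, minus strand): ctgagaggatgTTTTAATaaaatatgtaac
Errfi1 (higher, chr4:150868840-150868869, plus strand): ttgtcttttcaTTTTAATaaagttatatta
Wdr73 (higher, chr7:80890732-80890761, minus strand): tctaacagctttTTTTATaataaatttttt
Akap2 (higher, chr4:57896899-57896928, plus strand): attctgctttggTTTTATagtgtctgtgag
Prl8a2 (lower, chr13:27354113-27354142, plus strand): tgagaacttgcTTTTAATtgtatagctttt
Taldo1 (lower, chr7:141402910-141402939, plus strand): ataggattctgaTTTTATgtgaaattttgt
In Trim15, Errfi1 and Wdr73 the motif begins 23, 37 and 27 bases before the transcript end. In Akap2, Prl8a2 and Taldo1 it begins 72, 93 and 45 bases before it.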

How the data were processed

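The 6 members were chosen by cell type, age and co-culture as labelled; members and gene lists were chosen with earlier results of these data known. Expected counts, TPM and gene lengths are deposited per oocyte for 47069 genes, per the file headers in the layout RSEM writes. Tools named in the submitters' processing notes are TopHat2 2.1.1, Cufflinks, Trim Galore 0.4.5 and FastQC 0.11.8, with the build GRCm38.p5 (mm10). Quantifier, annotation and use of strand: not given in the sources used here. The expected counts deposited by the authors were rounded to whole numbers, and TPM as deposited served as an alternative.

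Symbols and coordinates came from GENCODE M21 (GRCm38), which matched 46574 identifiers. TMM factors over all 18 oocytes came from edgeR 4.0.16 under R 4.3.3. Its filterByExpr by group kept 12037 genes. Further steps used Python 3.11.15 with Matplotlib 3.10.9, SciPy 1.17.1, NumPy 2.4.6 and pandas 2.3.3. Called means a difference of at least 1 in mean log2(CPM + 1), with a pseudocount of 1 that understates low genes; folds are ratios of mean CPM. With 1 sample per group no p-value was computed. Counting floors cover counting error only. The computation was tested on simulated counts. No pair of the 6 libraries agreed within sampling noise.

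Named genes were the 15 largest differences each way with no overlap, 20 CPM or more in the group with the higher mean and a symbol that is no predicted gene, Riken clone or pseudogene, plus the 3 largest members at that level in each of 26 lists; some genes this rule names are not reported here. Genes named beyond this rule were chosen after their values were seen: Bicd1, Wtap, Pakap, Preb, Ing4, Zfas1, Synb, Washc1, Noa1, Gdf9, Gm28661, Gm37750 and the neighbours of Tmem214, and in the lists Bub3, Dcp2, Upf2, Exosc4, Tut7, Btg2, Eef1a1, Suv39h2, G6pdx, Gclc, Glrx2, Fzr1, Cdc20, Tcp1, Cct3, Gpr3, Cd9, Rpl11, Rps10, Ndufb6, Ndufv3, Cox8a, Atp5g1, Atp5l, Ndufs1, Sdha, Gstp1, Mgst3, Papola, Fn1, mt-Co1 and mt-Nd4l.

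Alternatives were TMM on the 6 oocytes alone, DESeq2 1.42.0 size factors, totals with no scaling, totals without mitochondrially encoded genes, TPM, pseudocounts of 0.25 and 5, no filter, the filter on the 6 oocytes (8392 genes), a mean of at least 10 CPM, thinning, and each oocyte left out. Counts and differences of list members without 6wk oocyte 1 were added after seeing the data.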

Additional observations from a re-analysis of the deposited data

Results flagged for a closer look

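Age differences of 2 genes had opposite directions at different stages. Preb was higher at 12m in IVM-MII oocytes by 2.65 and lower in MSC-IVM-MII oocytes by -2.72, each without overlap between the ages. G6pdx was higher in IVM-MII oocytes by 1.53 and lower in GV oocytes by -1.40, also without overlap; without IVM-MII 6wk oocyte 1 the former was 0.98, short of 2-fold. In both, all 12m oocytes lay above all 6wk oocytes at one stage and below them at the other. In MSC-IVM-MII oocytes the ages nearly met for Preb, at 11.3 CPM in 12m oocyte 3 and 12.1 CPM in 6wk oocyte 3. The difference between stages was not tested. Both genes were chosen after their values were seen.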

How the results depend on the processing

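The 15 higher and 15 lower leading genes kept their direction under every alternative run. They were chosen without overlap, so leaving out an oocyte or changing the pseudocount could not reverse them. Only the other scalings, TPM and thinning could have done so. Counts past 2-fold followed the low-level settings: higher and lower genes numbered 822 and 334 with a pseudocount of 5, 1175 and 550 with a mean of at least 10 CPM, and 1346 higher with TPM; with a pseudocount of 0.25 there were 3118 and 1694. Without overlap they numbered 394 and 127 with a pseudocount of 5 and 368 and 126 at 10 CPM, where fewer genes were counted, and 325 lower with TPM. Leaving out each oocyte gave 2236 to 3051 higher and 1221 to 1644 lower genes, and 895 to 1407 and 391 to 609 without overlap, which fewer oocytes make easier to meet; of the 611 and 210, 556 and 191 stayed past 2-fold without 6wk oocyte 1. The median of all genes ran from 0.09 to 0.27 with an oocyte left out and from 0.00 (TPM) to 0.23 otherwise. List medians moved by more than the SD between oocytes in 3 cases: oocyte identity and maternal effect to -0.04 with TPM, and mesenchymal markers to 3.52 with the filter on the 6 oocytes and at 10 CPM, where fewer genes were counted. Among single named genes, leaving out each oocyte gave -2.34 to 0.80 for Astl, -0.27 to 1.88 for Tgfb3 and -1.24 to 2.50 for Sc5d. Their signs turned without 6wk oocyte 1 (Astl, Tgfb3) or 6wk oocyte 2 (Sc5d). No paired analysis was possible because the replicate numbers follow accession order and pair no oocytes.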
